A study of Mus musculus with 6 samples.

Results

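The interferon response genes are 39 genes that respond to interferons, taken by name from the 23473 genes of the deposited table for mouse lung. For each gene the RefSeq transcript with the largest total count over all libraries was used. No difference between the genotypes entered the rule. RNA-seq was carried out on whole lung of mice with intact TSPO (wild type, WT) and of mice lacking it (knockout, KO), and the question was whether loss of TSPO, a protein of the outer mitochondrial membrane, changes the transcriptome of the unchallenged lung. There were 3 WT and 3 KO libraries, each made from the combined RNA of 3 mice, so 9 mice stood behind each genotype and the spread between libraries is a spread between pools. By the labels all mice were C57BL/6 and 6 to 8 weeks old, and the methods give C57BL/6J for the founding lines. KO mice were homozygous for a deletion of exon 2 and 3 of TSPO, made with a Cre driven by the Protamine promoter, which is active in male germ cells, so that the deletion is carried by every cell and not by a lung cell type. The sex of the pooled mice was not given in the sources used here.

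Interferons are cytokines that cells release on sensing foreign or misplaced nucleic acid. Type I and type III interferons act through receptors that switch on a complex that contains Stat2 and Irf9 and binds the interferon-stimulated response element (ISRE), and type II interferon (Ifng) acts through its own receptor and the gamma-activated sequence (GAS). In lung the genes behind these elements are known for restricting respiratory viruses, and many of them are transcribed at a low level without infection.

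Gene totals were between 9617086 and 11942318 counts per library. Levels are given as CPM, that is, counts relative to the library total after scaling of the libraries by the trimmed mean of M values (TMM). The ribosomal RNA gene Rn45s took 11.4% of the gene counts of WT 3 and from 0.224% to 0.427% of the other libraries, and when it was left out with Lars2 and the haemoglobin genes, 0 of the 39 genes were called and 4 had an unadjusted p under 0.05, as with them. Tspo was at 156, 153 and 153 CPM in WT and at 21.6, 21.7 and 19.7 CPM in KO. The log2 fold change was -2.87 (SE 0.10, adjusted p = 1.42e-07, edgeR quasi-likelihood test with Benjamini-Hochberg adjustment). The genotypes of all 6 libraries thus matched their labels. All 10 markers of lung epithelium and all 7 of endothelium had counts in every library, and the epithelial markers summed to between 46700 and 62000 CPM.

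No interferon response gene was called between KO and WT. All 39 were counted deeply enough to be tested, and 0 of them passed an adjusted p of 0.05 in the edgeR quasi-likelihood test, where 0.00676% of the 14802 genes tested were called, which was Tspo alone. DESeq2, the edgeR exact test and limma-voom also called 0 of the 39 and Tspo alone among all genes. The adjusted p was 0.9999 for every one of the 39. The log2 fold changes of KO against WT lay between -0.72 for Mx1 and 0.28 for Oas1g, with a median of -0.06, while the median over all genes tested was 0.0022. There were 28 of the 39 (71.8%) below 0 and 11 above, against 49.2% of all genes below 0. With library size alone as scaling, 18 lay above 0 and the median was -0.02, while the median over all genes tested moved with it to 0.04. The 95% interval stayed within a 2-fold change for 37 of the 39, with Mx1 and Oas1g as the exceptions, and within a 1.5-fold change for 31. Among all genes these shares were 93.2% and 75.5%. Tested markers of immune cells also lay mostly below 0. These were 6 of 6 for B cells, 8 of 11 for T and NK cells, 7 of 9 for neutrophils and 8 of 10 for monocytes and macrophages. Of the endothelial markers 4 of 7 lay below 0, and all 10 of lung epithelium lay above. The part of cell numbers in the fold changes of the 39 was not tested.

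**Figure D1:**
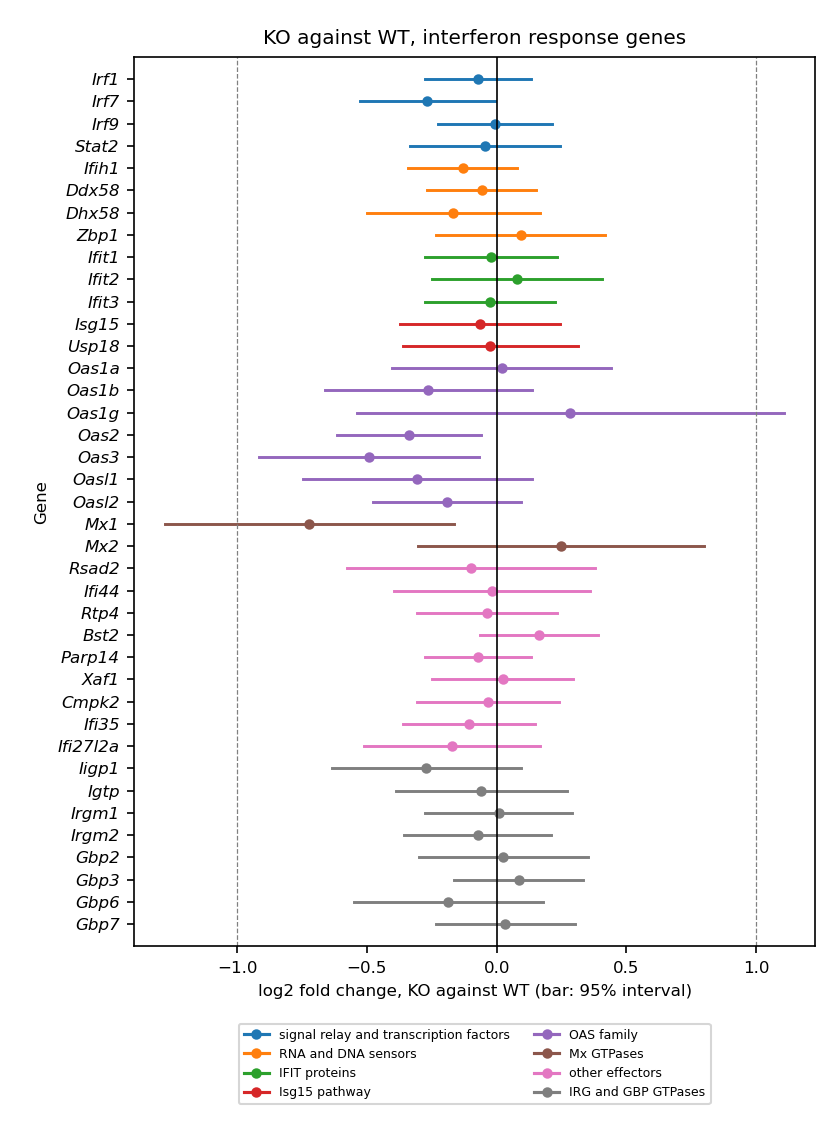
Log2 fold change of KO against WT for each of the 39 genes (x axis; point, edgeR estimate; bar, 95% interval), coloured by role, with dashed lines at a 2-fold change. The points lie between -0.72 (Mx1) and 0.28 (Oas1g), and the bars of Mx1 and Oas1g alone reach past a dashed line.

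Without adjustment, 4 of the 39 had p under 0.05 and all 4 were lower in KO: Mx1, Oas2, Oas3 and Irf7. Among all genes 1.88% had such a p, and 1.43% were lower in KO. DESeq2 gave 2 such genes among the 39, the edgeR exact test 3 and limma-voom 4. The count rested on several libraries. It was 0 without WT 1, 1 without WT 3, 2 without KO 1 and 1 without KO 2. In 5 of the 39 the libraries of the genotypes did not overlap, each time with KO lower: Mx1, Oas1b, Oas2, Irf7 and Ifih1. Among all genes 5.46% did not overlap, and in 3.18% KO was the lower genotype. In a pool of whole lung, fewer cells of a type and less RNA per cell cannot be told apart.

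Transcripts of the ligands that start the response were at or near 0. Of 21 interferon genes looked for, 19 were found and 0 had enough counts to be tested. All type I and type III genes found except Ifnk were listed at 0 counts in all 6 libraries, Ifnb1 included, which allows a level of up to 0.248 to 0.351 CPM per library (3 counts, counting error only). The gene of type II interferon, Ifng, which T and NK cells make, reached 4 counts in WT 1 and WT 3, had 2 in KO 1 and 1 in WT 2 and KO 3, and was at 0 in KO 2. Ifnk, a type I interferon of keratinocytes, had 1 or 2 counts in every library. Neither gene was above 4 counts in any library, so no difference was detectable at this depth.

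Transcripts of the interferon receptors were well counted. Of 6 receptor genes tested 0 passed, 2 lay above 0 and 4 below, and the median log2 fold change was -0.01. Ifnar1, a chain of the type I receptor, stood at 115, 118 and 123 CPM in WT and 110, 112 and 113 CPM in KO (log2 fold change -0.09, SE 0.09). Its KO libraries were all just below the WT libraries. Ifngr1, the ligand-binding chain of the type II receptor, was at 211, 188 and 198 CPM in WT and 240, 211 and 177 CPM in KO, so that KO held both its highest and its lowest library. Ifnlr1, the type III receptor found on epithelium, had a log2 fold change of -0.16 (SE 0.16), and Ifngr2 one of 0.02 (SE 0.10).

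Of the relay from receptor to gene, Stat2 and Irf9 are parts of the ISRE complex, Irf1 is an early transcription factor induced by type II interferon, and Irf7, at chr7:141263183-141266499 (GRCm38.p6), drives the amplification of type I interferon. Irf7 was at 27.8, 27.6 and 28.5 CPM in WT and 22.4, 21.2 and 26.3 CPM in KO. The WT libraries were tight and all above the KO libraries, with KO 3 nearest to them. The log2 fold change was -0.27 (SE 0.12, 95% interval -0.53 to -0.01, unadjusted p = 0.045, adjusted p = 0.9999), and the 3 RefSeq transcripts of Irf7 in the table gave nearly the same ratio. Under the other fits its unadjusted p was under 0.05 in 6 of 16, and its log2 fold change ran from -0.36 to -0.20.

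Irf1 was at 146, 150 and 152 CPM in WT and 142, 148 and 137 CPM in KO (log2 fold change -0.07, SE 0.09). Irf9 was at 64.5, 63.3 and 72.3 CPM in WT and 64.8, 64.7 and 69.5 CPM in KO (log2 fold change -0.0070, SE 0.10). Stat2 was at 62.1, 69.1 and 61.5 CPM in WT and 53.2, 58.8 and 75.2 CPM in KO. The KO libraries of Stat2 surrounded the WT libraries, and its log2 fold change was -0.04 (SE 0.13). In the remaining relay, 0 of 11 genes passed, 3 lay above 0 and 8 below, with a median of -0.05. They include Tyk2, a receptor kinase, at -0.18 (SE 0.13), and Irf8, a factor of myeloid cells, at -0.09 (SE 0.11).

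Of the sensors, Ddx58 (RIG-I) and Ifih1 (MDA5) detect viral RNA, Dhx58 (LGP2) modulates both, and Zbp1 binds Z-form nucleic acid. Ifih1 was at 45.6, 45.9 and 48.0 CPM in WT and 40.5, 44.0 and 42.7 CPM in KO. All KO libraries were below all WT libraries, by a small step, with a log2 fold change of -0.13 (SE 0.10, 95% interval -0.34 to 0.08). Ddx58, the most abundant of the 4, was at 77.6, 75.6 and 83.7 CPM in WT and 76.9, 72.9 and 77.6 CPM in KO (log2 fold change -0.06, SE 0.10). Dhx58 gave -0.17 (SE 0.15) and Zbp1 0.09 (SE 0.15), with overlapping genotypes. Of 18 other genes of nucleic acid sensing and its adaptors 0 passed, 8 lay above 0 and 10 below. Those with the smallest p were Ikbke, a kinase upstream of Irf3 and Irf7, at -0.22 (SE 0.16), Aim2, an inflammasome sensor of DNA, at -0.29 (SE 0.23), Ticam1, the adaptor of Tlr3, at 0.15 (SE 0.13), and Trex1, an exonuclease that clears DNA, at -0.18 (SE 0.18).

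The 2'-5'-oligoadenylate synthetases (OAS) make the messenger that activates RNase L, which degrades RNA, and 2 of the 4 genes with an unadjusted p under 0.05 belong to this family. Oas2 was at 18.7, 17.3 and 19.1 CPM in WT and 14.9, 13.7 and 15 CPM in KO. No library overlapped. By RefSeq, Oas2 lies at chr5:120730333-120749886 and Oas3 at chr5:120753098-120777684 (GRCm38.p6). For Oas2 the log2 fold change was -0.34 (SE 0.13, unadjusted p = 0.0217, adjusted p = 0.9999). Oas3, which is activated by long double-stranded RNA, was at 13.1, 10 and 14.7 CPM in WT and 10.3, 7.28 and 9.25 CPM in KO. Here WT 2 was below KO 1, so the genotypes overlapped, and the log2 fold change was -0.49 (SE 0.19, unadjusted p = 0.0264, adjusted p = 0.9999). Over 16 other fits the unadjusted p was under 0.05 in 10 for Oas2 and 13 for Oas3, and the log2 fold changes ran from -0.38 to -0.30 and from -0.64 to -0.36.

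Oas1b, whose full-length form confers resistance to flaviviruses, was at 7.78, 6.23 and 6.20 CPM in WT and 5.82, 5.63 and 5.41 CPM in KO. Its log2 fold change was -0.26 (SE 0.18), with WT 1 apart from the other libraries. Oas1b is annotated by RefSeq as a transcribed pseudogene in the reference strain. Oasl1, which represses Irf7 translation in mouse, was at 5.97, 5.19 and 4.45 CPM in WT and 4.07, 4.47 and 4.13 CPM in KO (log2 fold change -0.31, SE 0.20), and Oasl2 was at 56.0, 59.6 and 77.5 CPM in WT and 54.8, 53.7 and 60.1 CPM in KO (log2 fold change -0.19, SE 0.13). Oas1a and Oas1g did not share the direction, at 0.02 (SE 0.19) and 0.28 (SE 0.37). Oas1g was the lowest of all 39, with 6 to 18 counts in WT, and Oas1a and Oas1g are close copies whose reads may be split between them. Of the 7 OAS genes 5 lay below 0 and 2 above.

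The Mx GTPases trap viral ribonucleoproteins, and Mx1 lies at chr16:97447035-97462906. Mx1 had the largest size of difference of the 39, at 6.69, 4.50 and 5.62 CPM in WT and 2.40, 3.64 and 4.13 CPM in KO. The lowest WT library and the highest KO library were close, and KO 1 was the lowest of all. The log2 fold change was -0.72 (SE 0.25, 95% interval -1.28 to -0.17, unadjusted p = 0.0155, adjusted p = 0.9999), and it kept its direction over 16 other fits, from -0.88 to -0.53, though its unadjusted p was not under 0.05 without WT 1 or without KO 1. A second entry of the same gene in the table, a non-coding transcript, gave 6.24, 4.15 and 4.91 CPM in WT and 2.77, 3.39 and 4.23 CPM in KO, where the genotypes overlapped. Mx2 lay the other way, at 3.80, 3.03 and 4.45 CPM in WT and 3.33, 4.47 and 5.51 CPM in KO (log2 fold change 0.25, SE 0.25). Mx1 and Mx2 are both annotated as transcribed pseudogenes in the reference strain, and both had low counts.

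**Figure D2:**
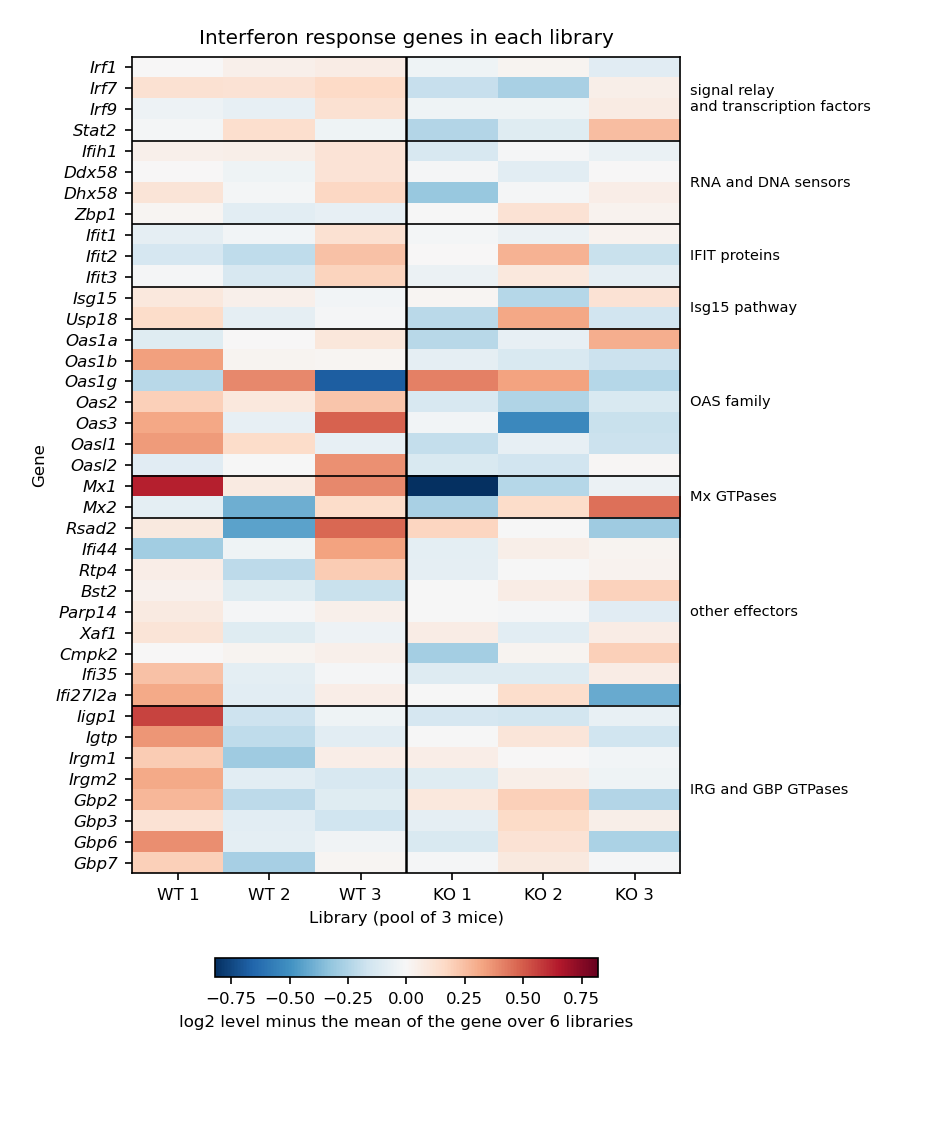
Level of each of the 39 genes (rows, by role) in each library (columns, pools of 3 mice), as log2 level minus the mean of the gene over the 6 libraries. WT 1 and WT 3 each held the highest value of 14 of the 39 genes and WT 2 of 0, while Mx1 and Oas2 were low in all KO libraries.

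The genes of the IFIT proteins, of which Ifit1 binds viral RNA that lacks the cap methylation of host messengers, showed little difference between the genotypes. Ifit1 was at 21.0, 21.7 and 24.1 CPM in WT and 21.8, 21.4 and 22.5 CPM in KO (log2 fold change -0.02, SE 0.12), and Ifit3 was at 33.7, 31.1 and 38.5 CPM in WT and 32.8, 36.1 and 32.3 CPM in KO (log2 fold change -0.03, SE 0.11). Ifit2 was at 34.8, 33.2 and 45.3 CPM in WT and 38.4, 46.8 and 33.8 CPM in KO (log2 fold change 0.08, SE 0.15). All 3 were above their own mean in WT 3, and Ifit2 was also high in KO 2. Isg15, the ubiquitin-like modifier, was at 16.6, 16.1 and 15.3 CPM in WT and 15.8, 13.2 and 16.9 CPM in KO (log2 fold change -0.07, SE 0.14). Usp18, which removes Isg15 and restrains the receptor, was at 27.3, 23.4 and 24.5 CPM in WT and 21.1, 30.6 and 22 CPM in KO (log2 fold change -0.02, SE 0.15). In both genes KO held the highest and the lowest library.

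The other effectors act against viruses at several steps. Bst2 (tetherin) holds budding virions at the membrane, and stood at 91.7, 83.5 and 78.9 CPM in WT and 89.1, 93.3 and 102 CPM in KO, with a log2 fold change of 0.16 (SE 0.10). Rsad2 (viperin), which makes a chain-terminating nucleotide, was at 14.6, 10.1 and 19.1 CPM in WT and 15.5, 13.7 and 11.2 CPM in KO (log2 fold change -0.10, SE 0.22). Rsad2 spread widely within WT, and of the 9 effectors Bst2 and Xaf1, an apoptosis factor at 0.02 (SE 0.12), lay above 0. Cmpk2, the neighbour of Rsad2 and a mitochondrial nucleotide kinase, gave -0.03 (SE 0.12), Parp14, an ADP-ribosyltransferase, -0.07 (SE 0.09), and Ifi35 -0.11 (SE 0.12). Ifi44 gave -0.02 (SE 0.17), Rtp4 -0.04 (SE 0.12), and Ifi27l2a, a small mitochondrial or nuclear-envelope protein, -0.17 (SE 0.15).

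The IRG and GBP GTPases coat and break the vacuoles of intracellular pathogens, and they are strong targets of type II interferon. None of the 8 had an unadjusted p under 0.05, and WT 1 was the library that stood out. Iigp1 was at 59.9, 36.2 and 39.8 CPM in WT and 37.1, 36.7 and 39 CPM in KO. WT 1 stood apart, at 1.59 times the mean of the other libraries. The log2 fold change was -0.27 (SE 0.17) with all libraries, -0.01 without WT 1 and -0.41 without WT 2. Gbp2 was at 90.5, 64.6 and 70.2 CPM in WT and 79.8, 85.9 and 63.6 CPM in KO (log2 fold change 0.03, SE 0.15). Igtp was at 42.7, 28.7 and 31.2 CPM in WT and 33.2, 35.7 and 29.7 CPM in KO (log2 fold change -0.06, SE 0.15). In each of these 3 genes WT 1 was the highest library. Irgm1, a regulator of the other IRGs, was at 55.9, 39.4 and 50.1 CPM in WT and 50.1, 48.3 and 47.6 CPM in KO, and Irgm2 was at 71.1, 53.8 and 52.2 CPM in WT and 53.4, 59.1 and 56.0 CPM in KO. Gbp7 was at 96.1, 69.5 and 84.8 CPM in WT and 83.6, 89.0 and 83.6 CPM in KO. WT 1 was again highest in all 3, with log2 fold changes of 0.01, -0.07 and 0.03. Gbp6 was at 20.3, 14.7 and 15.2 CPM in WT and 14.2, 16.9 and 13.0 CPM in KO, while Gbp3, at 41.2, 35.7 and 33.8 CPM in WT and 36.0, 42.2 and 39.2 CPM in KO, was the only member of the group highest in KO 2.

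WT 1 was thus the highest library for 7 of these 8 genes, and its level relative to the mean of the other libraries ran from 1.10 to 1.59. The median log2 deviation of the 8 genes from their means was 0.29 in WT 1 and -0.19 in WT 2. Their median SD within a genotype was 0.20 on the log2 scale, where counting alone gives 0.067. Over all genes tested these values were 0.175 and 0.088. Without WT 1 the log2 fold changes of the 8 genes had a median of 0.13, and with it -0.03. Without WT 2 they ran from -0.41 (Iigp1) to 0.06 (Gbp3), and Gbp3 alone lay above 0. The grouping and this reading of the libraries were made after the values were seen. Of the cell type markers, 6 of 6 for B cells were found, and they summed to 279 CPM in WT 1 and to between 166 and 190 CPM in the other libraries, all 6 being highest in WT 1 and none at 0. Of 12 T and NK cell markers 11 were found, none of these at 0. They summed to between 114 and 135 CPM in WT and 102 and 123 CPM in KO. The sum was highest in WT 1, as were 5 of the 11 markers. The part of B, T and NK cells in the level of the GTPases was not tested.

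**Figure D3:**
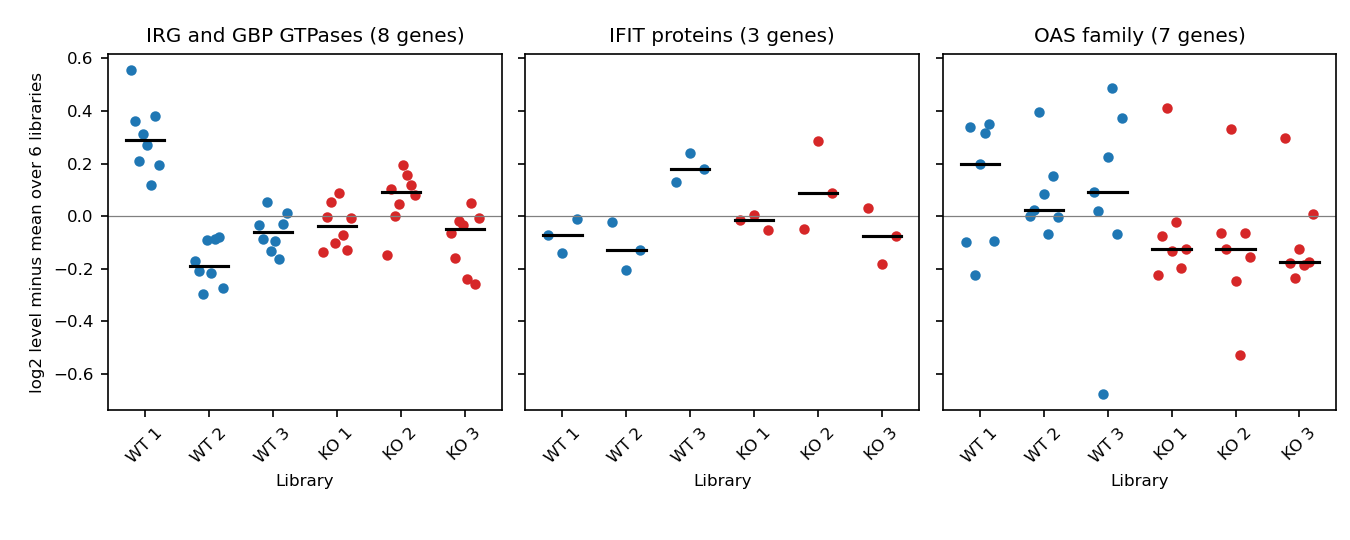
Log2 level minus the mean of the gene over the 6 libraries, for each gene (point) of 3 families in each library (x axis; blue, WT; red, KO), with the median as a bar. The 8 IRG and GBP GTPases lie highest in WT 1 (median 0.29) and lowest in WT 2 (median -0.19), and the 3 IFIT genes lie highest in WT 3 (median 0.18).

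Letters that match the ISRE and the GAS could be searched for in 27 of the 39 genes. For these RefSeq (GRCm38.p6) gives a window of 250 bases before to 50 bases after the start. The ISRE was searched as 2 copies of GAAA separated by 2 bases, on both strands, and the GAS as TTCNNNGAA, which is its own reverse complement. The ISRE was found in 17 of the 27 (63.0%) and in 1079 of the 27025 genes with a window (3.99%). The GAS was found in 8 (29.6%) against 9.55% of all, and both elements in 5 (18.5%) against 0.614%. All 6 IRG and GBP GTPases with a window held the ISRE and 3 of them the GAS. Of these 6, stretches of 60 bases are given for 5 and not for Gbp3, on the strand that reads as the RNA does, and capitals mark the matches. They are shown, 5′ to 3′, because these genes were high together in WT 1. Igtp, Irgm2 and Gbp7 carry both elements, and Irgm1 and Gbp2 the ISRE alone.
Igtp, chr11:58199491-58199550, plus strand: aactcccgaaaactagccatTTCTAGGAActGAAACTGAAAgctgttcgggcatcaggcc
Irgm2, chr11:58214882-58214941, plus strand: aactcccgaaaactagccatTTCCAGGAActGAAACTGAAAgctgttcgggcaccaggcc
Irgm1, chr11:48871421-48871480, minus strand: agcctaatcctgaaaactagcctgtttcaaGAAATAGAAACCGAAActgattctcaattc
Gbp2, chr3:142620579-142620638, plus strand: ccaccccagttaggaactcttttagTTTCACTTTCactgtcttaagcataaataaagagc
Gbp7, chr3:142530241-142530300, plus strand: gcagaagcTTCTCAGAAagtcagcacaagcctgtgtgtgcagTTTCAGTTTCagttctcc
The windows of Igtp and Irgm2 were the same at 58 of 60 positions, so the matches in them are near copies of each other. In both, the GAS lies just before the ISRE.

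Of the antiviral genes, Bst2 and those of the IFIT, Isg15 and OAS families whose windows held the ISRE are shown next for comparison. It was found in 2 of 3 IFIT windows and 3 of 5 OAS windows. Ifit2 held a GAS and no ISRE. A GAS lies in the printed stretch of Bst2 alone.
Ifit1, chr19:34640769-34640828, plus strand: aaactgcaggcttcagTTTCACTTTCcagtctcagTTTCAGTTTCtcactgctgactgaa
Ifit3, chr19:34583365-34583424, plus strand: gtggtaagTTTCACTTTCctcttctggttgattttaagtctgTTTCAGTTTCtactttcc
Isg15, chr4:156200856-156200915, minus strand: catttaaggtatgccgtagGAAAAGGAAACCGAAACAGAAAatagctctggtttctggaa
Oas1a, chr5:120907526-120907585, minus strand: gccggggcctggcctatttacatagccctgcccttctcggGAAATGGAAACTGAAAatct
Oas1g, chr5:120887614-120887673, minus strand: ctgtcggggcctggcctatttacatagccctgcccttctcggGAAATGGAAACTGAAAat
Oas3, chr5:120777700-120777759, minus strand: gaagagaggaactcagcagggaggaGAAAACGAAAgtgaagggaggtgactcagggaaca
Bst2, chr8:71537568-71537627, minus strand: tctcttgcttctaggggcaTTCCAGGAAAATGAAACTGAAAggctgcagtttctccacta
Isg15 held 3 overlapping copies of the ISRE, and Oas1a, Oas1g and Bst2 each held 2 overlapping copies. Ifit1 and Ifit3 each held 2 copies that did not overlap. In Bst2 the GAS overlapped the ISRE. Oas1a and Oas1g shared an unbroken run of 56 bases. For Ifit3, Oas1a and Oas3, and for the windows of Ifit2 and Gbp3 that held a match, the annotated gene begins further upstream than the start used. A match says only that these letters are present.

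**Figure D4:**
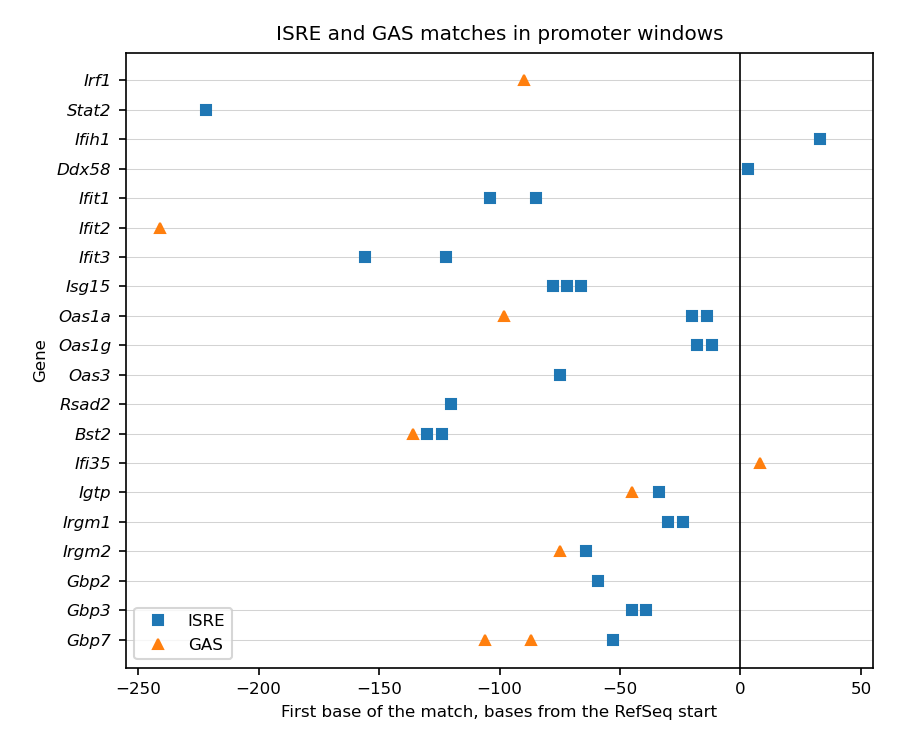
First base of each ISRE (squares) and GAS (triangles) match, in bases from the RefSeq start (x axis, 0 is the start), for the members whose window of 250 bases before to 50 after the start holds a match. Of the GTPases, Igtp, Irgm2 and Gbp7 hold both elements, and Irgm1, Gbp2 and Gbp3 the ISRE alone.

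Across the 39 genes, the WT libraries differed among themselves. WT 1 and WT 3 were each the highest library for 14 of the 39 (35.9%) and WT 2 for 0, while WT 2 was the lowest for 12 (30.8%). KO 1 was the highest for 1 (2.56%) and the lowest for 9 (23.1%). Among all genes each library was the highest for 13.9% to 19.9%. WT 3 was highest for Oasl2, Oas3, Rsad2, Ifi44, Ifit1 and Ifit3, among others. All 10 neutrophil markers were found and none was at 0. They summed to between 185 and 553 CPM in WT and 201 and 376 CPM in KO. The sum was highest in WT 3, as were 5 of the 10 markers. Ltf, among the rest, was at 33.0 CPM in WT 3 and 82.1 CPM in KO 2. WT 3 was also the library with the large share of Rn45s. The part of neutrophils or of Rn45s in the WT 3 values was not tested. Plasmacytoid dendritic cells are the main producers of type I interferon. Of their 6 markers 3 were highest in WT 3 (Tcf4, Ccr9 and Cox6a2). Siglech was not, at 3.44, 3.98 and 3.39 CPM in WT and 3.42, 4.55 and 2.16 CPM in KO, with overlapping genotypes. The part of these cells in the WT 3 values was not tested.

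The spread between libraries can be set beside that of all genes. The median SD within a genotype was 0.17 on the log2 scale, against 0.175 for all genes, where counting error alone gives 0.077. The ratio of the highest to the lowest library had a median of 1.39 and 1.36 over all genes. The smallest ratios were 1.11 for Irf1 and 1.12 for Parp14, and the largest were 2.79 for Mx1, 2.24 for Oas1g and 2.02 for Oas3. Rsad2 at 1.88 and Mx2 at 1.82 came next. By level per kb of transcript, for the 38 genes with a length, Bst2 was highest in WT at 107 CPM per kb, followed by Ifi27l2a at 77.2, Irf1 at 70.0, Ifi35 at 33.3 and Gbp2 at 29.8. The lowest were Mx2 at 1.55 and Oas1g at 0.549.

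Of 14 tested negative regulators of interferon signalling 0 passed, 5 lay above 0 and 9 below, with a median of -0.05. Nlrc5, which drives MHC class I genes and restrains interferon signalling in some settings, was at 43.1, 33.3 and 31.2 CPM in WT and 23.5, 26.1 and 33.7 CPM in KO. KO 3 overlapped with WT, and the log2 fold change was -0.38 (SE 0.16, unadjusted p = 0.0375, adjusted p = 0.9999). Ptpn6, a phosphatase of haematopoietic cells, gave -0.22 (SE 0.11) and Nlrc3 -0.32 (SE 0.19).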

How the data were processed

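RNA of lung from 3 WT and 3 KO pools was sequenced, and the authors aligned reads to mm10 with TopHat and deposited unnormalized counts for each transcript. How reads were counted (tool, annotation, strand, reads shared by transcripts) was not given in the sources used here. Without strand, a gene and its antisense partner cannot be told apart. Of 64529 entries, 33353 FANTOM3 clones were not used, and 48 of 49 gene names replaced by dates were restored. The RefSeq transcript with the largest total stood for each of 23473 genes. Low genes were removed with filterByExpr (at least 10 counts, total of 15), libraries were scaled by TMM and genotypes were compared by edgeR's quasi-likelihood test (R 4.3.3, edgeR 4.0.16, limma 3.58.1, DESeq2 1.42.0) with Benjamini-Hochberg adjustment over 14802 genes and a threshold of 0.05. P-values measure the spread between pools of 3 mice.

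The 39 genes, the lists of other genes and the choice of alternatives were made with earlier results of these data known. The text names all 39, Tspo, untested ligands with their counts and, from each list described, up to 4 genes ranked first by p, of which some are not reported here. Grouping by role was made after the values were seen. Alternatives were other scalings, filters and tests, leaving out each library, a replicate block, leaving out Rn45s, Lars2 and haemoglobin genes, and summing the RefSeq transcripts of a gene. The steps were tested on simulated data. Promoter windows are those of RefSeq, GRCm38.p6, with 12 members not matched.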

Additional observations from a re-analysis of the deposited data

How the results depend on the processing

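The number of called interferon response genes was 0 under every alternative run, at a threshold of 0.1 as well, and the lowest adjusted p of any of the 39 was 0.963. The number with an unadjusted p under 0.05 was 4, and it became 2 with library size alone as scaling, 2 with DESeq2 and 2 with the replicate number as a block. Leaving out each library in turn gave 0 to 4. The block was not used otherwise, since same-numbered libraries did not deviate together (correlations 0.12, -0.22 and -0.26). These deviations were taken from the mean of only 3 libraries per genotype, so the correlations cannot decide whether the numbers pair the libraries. The median log2 fold change of the 39 lay between -0.06 and -0.02 under the other settings and between -0.09 and -0.03 when a library was left out. Of the 39 genes 18 changed sign under some setting, 7 of them without any library being left out, and 21 kept their sign. These 7 were above 0 with library size alone as scaling, which moved the median over all genes tested from 0.0022 to 0.04. Without WT 2, 7 genes lay above 0, and without WT 3, 16. A filter of 10 counts in every library left 38 of the 39 for testing. With 3 pools in each genotype, and a median standard error of 0.13 on the log2 scale, small differences cannot be seen. The cause of these changes was not tested.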

Other observations

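Interferon-stimulated genes other than the 39 were looked at from a list of 78 symbols, of which 77 were found and 71 were tested. Of these 0 passed an adjusted p of 0.05 in the edgeR quasi-likelihood test, with 1 at an unadjusted p under 0.05 (1.88% of all genes), and DESeq2, the edgeR exact test and limma-voom called Tspo alone among all genes. The median log2 fold change was -0.08, with 20 above 0 and 51 below, and in 4 the libraries of the genotypes did not overlap, beside 5.46% of all genes (Trim34a, Sp110, Phf11d and Tnfsf10, named after their values were seen). Sp110, a nuclear body protein, was at 38.4, 30.3 and 28.0 CPM in WT and 24, 26.5 and 27.1 CPM in KO (log2 fold change -0.32, SE 0.13). Tnfsf10, the death ligand TRAIL, was at 205, 176 and 190 CPM in WT and 175, 155 and 171 CPM in KO (log2 fold change -0.19, SE 0.10). Slfn4, a gene of myeloid cells, spread within both genotypes, at 38.4, 19 and 57.1 CPM in WT and 37.9, 13.7 and 13.5 CPM in KO. Of the 71, 34 were highest in WT 1 and 25 were lowest in WT 2, beside 15.1% and 19.4% of all genes. Among 9 GBP and IRG genes of this list, a grouping chosen after the values were seen, 6 were highest in WT 1 and 6 lowest in WT 2.

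The 6 plasmacytoid dendritic cell markers summed to between 210 and 261 CPM in WT and 212 and 229 CPM in KO, with WT 3 highest. Most of this sum was Tcf4, which many other cell types express, at 182, 192 and 225 CPM in WT and 199, 199 and 188 CPM in KO. Of 12 monocyte and macrophage markers 10 were found, and they summed to between 415 and 454 CPM in WT and 372 and 401 CPM in KO, none being at 0. The libraries of the genotypes overlapped in every one of the 10 markers. Fabp4 had the largest fold change among them, with a log2 fold change of -0.96 (SE 0.33). It was at 89.1 CPM in WT 2 and at 41.7 CPM or less in the other libraries. The lowest WT sum (415 CPM) was that of WT 1, where Fabp4 was at 37.3 CPM. The highest KO sum (401 CPM) was that of KO 1, where Fabp4 was at 20 CPM. Between these libraries Fabp4 differed by more than the sums did, so without Fabp4 the sums of the genotypes overlap. The difference between the sums was not tested. The 9 skeletal muscle and fat markers summed to 347 CPM in WT 2 and to 75.0 CPM or less in the other libraries.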
